A study of Mus musculus with 2 samples.

Results

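The 9 genes described here encode brakes on cell division, namely 6 inhibitors of cyclin-dependent kinases (CDKs) and the 3 proteins of the retinoblastoma family. They were taken by gene name from a deposited table of normalized counts that lists 20647 genes, and all 9 were listed. The study sequenced RNA from 2 cultures of organoids, cell clusters grown from mouse pituitary in PitOM medium. Cystic organoids were sampled at passage 2 and derived from a GHCre/iDTR male of 10 weeks. Dense organoids were sampled at passage 4 and derived from a -/iDTR male of the same age. Both cultures therefore carried iDTR, and the library of cystic organoids also GHCre. The labels name no toxin treatment, nor the cells in which the Cre was active. With 1 library per group, organoid form, passage and mouse cannot be told apart, no test between the forms could be made, and no p-value is given.

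Progress from G1 into S phase depends on D-type cyclins with CDK4 or CDK6 and on E-type cyclins with CDK2. These kinases phosphorylate the retinoblastoma proteins, called pocket proteins, and so free E2F transcription factors to switch on genes of DNA replication. The INK4 inhibitors (p16, p15, p18 and p19 from Cdkn2a, Cdkn2b, Cdkn2c and Cdkn2d) bind CDK4 and CDK6, whereas the CIP/KIP inhibitors (p21 and p27 from Cdkn1a and Cdkn1b) bind many cyclin-CDK pairs. Mice that lack p27, p18 or 1 copy of Rb1 develop pituitary tumours, which makes this gland unusually dependent on these brakes. Several of the genes, Cdkn2a and Cdkn1a first among them, are also used as signs of cellular senescence.

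The members differed between the libraries in both directions. Cdkn2c was 3.25-fold and Cdkn1b 2.02-fold higher in cystic organoids, whereas Cdkn1a (1.76-fold) and Rbl1 (1.73-fold) were the members furthest towards dense organoids. Cdkn2a, the most used senescence marker, had low normalized counts in both libraries, 124 in cystic and 110 in dense organoids. These values are not corrected for length. Per kilobase of exon, its level of 106 in cystic and 93.8 in dense organoids was above that of Cdkn1b (65.7 and 32.5). The remaining members differed between the libraries by 1.36-fold or less.

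Promoters are shown for the members furthest apart between the libraries and for the upstream start of Cdkn2a. They are 300-base windows from RefSeq on the GRCm38.p6 build, each from 250 bases before to 50 bases after a transcription start, read 5′ to 3′ on the gene's strand. A window was matched for 8 of the 9 members, all but Rb1, with 11 windows in all, since Cdkn1a, Cdkn2a and Cdkn2c have a pair of starts each. Capitals mark letters of an E2F motif (TTTCCCGC, TTTCGCGC, TTTGCCGC or TTTGGCGC) or of a GC box (GGGCGG), searched on both strands. The windows are Cdkn1b (chr6:134920151-134920450, plus strand), the upstream Cdkn2c start (chr4:109666707-109667006, minus strand), the downstream Cdkn1a start (chr17:29093519-29093818, plus strand), Rbl1 (chr2:157204485-157204784, minus strand) and the upstream Cdkn2a start (chr4:89294570-89294869, minus strand), from which the ARF transcript begins.
Cdkn1b: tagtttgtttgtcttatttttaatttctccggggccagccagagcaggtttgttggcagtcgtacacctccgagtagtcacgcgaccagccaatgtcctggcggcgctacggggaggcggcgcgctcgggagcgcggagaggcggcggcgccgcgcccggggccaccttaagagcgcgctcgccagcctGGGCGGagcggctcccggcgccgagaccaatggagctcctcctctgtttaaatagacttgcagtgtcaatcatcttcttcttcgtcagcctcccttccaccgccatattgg
Cdkn2c: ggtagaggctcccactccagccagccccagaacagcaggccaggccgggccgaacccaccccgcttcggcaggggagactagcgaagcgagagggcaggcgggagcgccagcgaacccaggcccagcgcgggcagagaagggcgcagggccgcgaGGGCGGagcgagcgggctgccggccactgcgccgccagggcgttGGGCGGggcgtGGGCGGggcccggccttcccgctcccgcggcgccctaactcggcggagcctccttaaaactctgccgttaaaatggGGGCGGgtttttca
Cdkn1a: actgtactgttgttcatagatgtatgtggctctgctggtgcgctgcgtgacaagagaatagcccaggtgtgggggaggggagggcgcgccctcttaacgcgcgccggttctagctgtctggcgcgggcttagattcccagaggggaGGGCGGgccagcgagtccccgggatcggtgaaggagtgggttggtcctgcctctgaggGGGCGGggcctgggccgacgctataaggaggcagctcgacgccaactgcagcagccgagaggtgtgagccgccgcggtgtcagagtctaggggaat
Rbl1: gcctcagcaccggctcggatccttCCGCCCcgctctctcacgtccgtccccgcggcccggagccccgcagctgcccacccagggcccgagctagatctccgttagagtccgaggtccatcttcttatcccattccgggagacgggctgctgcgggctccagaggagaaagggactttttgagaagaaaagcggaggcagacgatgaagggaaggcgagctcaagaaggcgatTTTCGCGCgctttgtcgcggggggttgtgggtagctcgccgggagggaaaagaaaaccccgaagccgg
Cdkn2a: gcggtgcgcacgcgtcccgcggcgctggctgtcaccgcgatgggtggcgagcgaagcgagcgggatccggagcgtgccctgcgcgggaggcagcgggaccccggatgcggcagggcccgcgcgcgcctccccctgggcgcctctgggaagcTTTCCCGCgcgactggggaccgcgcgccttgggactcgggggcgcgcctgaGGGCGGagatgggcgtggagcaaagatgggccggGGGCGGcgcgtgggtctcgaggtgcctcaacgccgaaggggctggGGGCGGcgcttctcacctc

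An E2F motif was found in 2 of the 11 windows, TTTCGCGC in Rbl1 with its first base at position -18 and TTTCCCGC in the upstream Cdkn2a window at position -99, counted from the start site. Of all 32851 promoter windows of this length, 2.26% hold one. A GC box was found in 9 of the 11 windows, against 35.7% of all windows, with 4 copies in the Cdkn2c and 2 in the Cdkn1a window shown. In the Rbl1 and Cdkn2a windows the E2F letters did not overlap a GC box. The windows shown hold between 23 (Cdkn1a) and 45 (Cdkn2a) CpG dinucleotides, and the median of all windows is 7. The other start of each pair, not shown, has 2 for Cdkn1a, 8 for Cdkn2c and 12 for Cdkn2a. A match of letters describes the sequence and does not show that a factor binds there.

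The cystic library held 17247431 reads and the dense library 19258313, and intervals below are 95% intervals for counting error only. Smart-seq v4 amplifies RNA by PCR, so reads are not independent molecules. Among the cell type markers, the 6 basal and squamous epithelial genes summed to 559.7 normalized counts in cystic organoids, against 478376 in dense organoids, and the 5 simple epithelial genes to 109540 against 32526. The pituitary stem cell genes, 7 of the 8 fixed, summed to 14868 and 13589, and Hesx1 was not analysed here. Of these, Sox2 was present in both libraries, Lhx3 and Six6 had no read in dense organoids, and Pitx1 lay the other way with 1276 and 5614. The 7 hormone genes summed to 3978 and 703. The 7 fibroblast genes summed to 115 and 14.3, and 3 of the 5 endothelial genes to 25.1 and 4.78. For leukocytes, 4 of the 7 genes summed to 423 and 3124, most of it from the lysosomal gene Cd68 with 373 and 3123. The macrophage gene Aif1 had 47.1 and no read, and Ptprc 1.05 and no read. The remaining endothelial and leukocyte genes were not analysed here. The part of the epithelial composition in the differences below was not tested. In bulk RNA, fewer cells of a type and less RNA per cell cannot be told apart.

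The background is the 11279 genes whose 2 values averaged 50 or more. A gene counted as called when the log2 ratio of cystic over dense, after adding 1 to each value, reached 1 in size, which is a 2-fold difference. All 9 members passed this minimum. Of them, 2 were called higher in cystic organoids, where 15.7% of all genes were, and 0 in dense organoids, where 15.6% of all genes were. At 1.5-fold, 2 members were higher in cystic organoids (24.3% of all genes) and 2, Cdkn1a and Rbl1, in dense organoids (24.9% of all genes). At 4-fold the count was 0 in both directions, with 7.86% and 7.65% of all genes. The counting interval of the fold lay wholly above 1 for 2 members in cystic (39.9% of all genes) and 4 in dense organoids (43.5%). The median log2 ratio of the members was -0.16, and that of all genes -0.03. The median size of the log2 ratio was 0.44 for the members and 0.57 for all genes. Neither the counts nor the medians are read as particular to the members. From here on, a pair of values joined by "against" gives normalized counts with cystic organoids first, and a range in parentheses after a fold is its 95% counting interval.

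**Figure D1:**
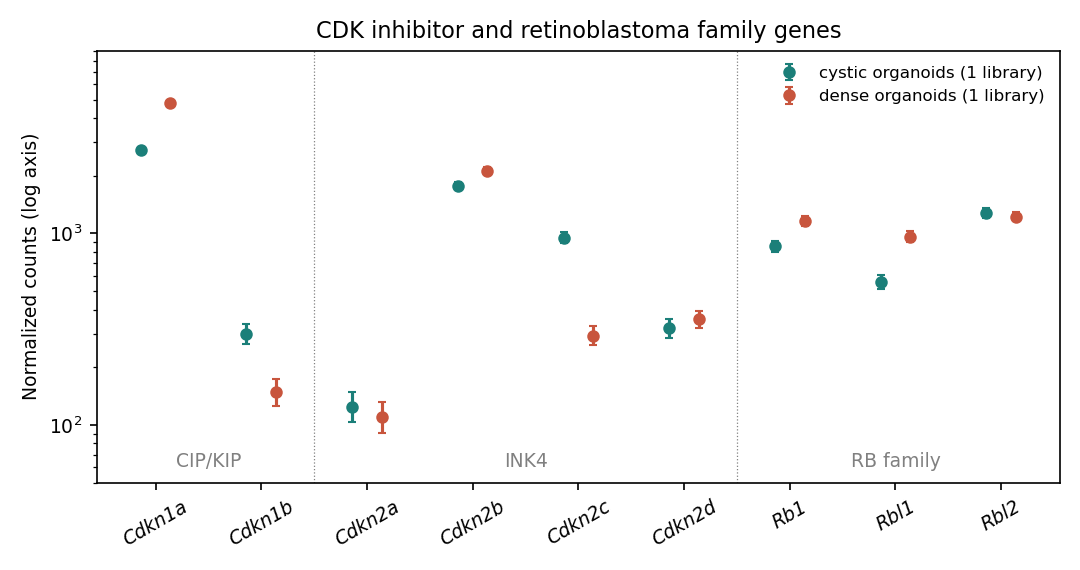
Normalized counts (log axis) of the 9 members in each library, 1 point per library, with bars for the 95% Poisson counting interval. Cdkn2c and Cdkn1b sit higher in cystic organoids, Cdkn1a and Rbl1 higher in dense organoids. Cdkn2a is the lowest member in both, without a correction for length.

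Of the CIP/KIP genes, Cdkn1a had the highest normalized counts of all members, without a correction for length. It was also the member with the largest difference towards dense organoids. Cdkn1a (ENSMUSG00000023067, chromosome 17) encodes p21, which p53 induces after DNA damage and which halts CDK2. It had 2734 normalized counts in cystic organoids (95% Poisson interval 2630 to 2841) and 4799 in dense organoids (4668 to 4934). The dense library was the higher by 1.76-fold (1.67 to 1.84). Among all genes, 19.1% had a ratio as far or further towards dense organoids. Cdkn1b (ENSMUSG00000003031, chromosome 6) encodes p27, the inhibitor that keeps resting cells out of the cycle. It had 299 in cystic (266 to 336) and 148 in dense organoids (126 to 173), 2.02-fold higher in cystic (1.66 to 2.47). The lower end of that interval is under 2-fold, and the call was lost with a pseudocount of 10 (log2 ratio 0.97). As far or further towards cystic organoids were 15.5% of all genes. The pair thus differed in opposite directions, and the intervals of the 2 libraries did not overlap for either gene. Per kilobase (kb) of exon, the level of Cdkn1a was 11.7 times that of Cdkn1b in cystic (10.4 to 13.2) and 41.5 times in dense organoids (35.4 to 48.7). With the length of the longest transcript in place of all exons, these ratios were 19.99 and 70.9.

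Cdkn1c, the remaining CIP/KIP gene, which encodes p57 and is imprinted, is no member but differed by a larger fold than either. It stood at 291 against 23.9, which is 12.2-fold towards cystic (8.07 to 19.1). The other genes of a list of 10 CDK inhibitor and adaptor genes, all measured, included Cables1, an adaptor between CDKs and a tyrosine kinase, with 296 against 23.9, which is 12.4-fold (8.22 to 19.5). Cdk2ap2, a CDK2-associated protein gene, stood at 1714 against 4035, or 2.35-fold towards dense (2.22 to 2.49). Cdkn2aipnl had 1404 against 1650, a difference of under 2-fold. The calls in this list were 2 towards cystic and 1 towards dense organoids. Its median log2 ratio was -0.04, or -0.47 with a minimum mean of 200, and that of all genes -0.03.

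Of the INK4 genes, Cdkn2c stood furthest from an equal level and the other 3 differed by 1.21-fold or less. Cdkn2c (ENSMUSG00000028551, chromosome 4) encodes p18. It had 949.9 normalized counts in cystic (889 to 1014) and 292 in dense organoids (261 to 327). The cystic library was the higher by 3.25-fold (2.85 to 3.71), so that the whole interval was beyond 2-fold. A ratio as far or further towards cystic organoids was found for 9.28% of all genes. Cdkn2b (ENSMUSG00000073802, chromosome 4) encodes p15, which TGF-beta induces in epithelial cells. It was the most abundant INK4 gene, with 1760 in cystic (1677 to 1846) and 2132 in dense organoids (2044 to 2222), 1.21-fold higher in dense (1.14 to 1.29). Cdkn2d (ENSMUSG00000096472, chromosome 9) encodes the INK4 protein p19 and had 320.1 in cystic (285 to 358) and 357 in dense organoids (322 to 396). Its intervals overlapped, and its fold towards dense of 1.12 had an interval from 0.958 to 1.30.

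Cdkn2a (ENSMUSG00000044303, chromosome 4) lies beside Cdkn2b and encodes 2 unrelated proteins from separate starts, the CDK inhibitor p16 and ARF, which stabilises p53. The table holds 1 value per gene, so p16 and ARF transcripts cannot be told apart. Cdkn2a had 124 normalized counts in cystic (103 to 149) and 110 in dense organoids (90.8 to 132). These are 119 and 115 reads. The intervals overlapped, and the fold towards cystic of 1.13 had an interval from 0.869 to 1.48, so a difference was not detectable at this depth and one of up to 1.48-fold is within the interval. Of all genes past the minimum, 86.1% in cystic and 87.4% in dense organoids had a higher value, without a correction for length. No 36-base stretch of the Cdkn2a transcripts occurred in transcripts of another gene, Cdkn2b included.

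**Figure D2:**
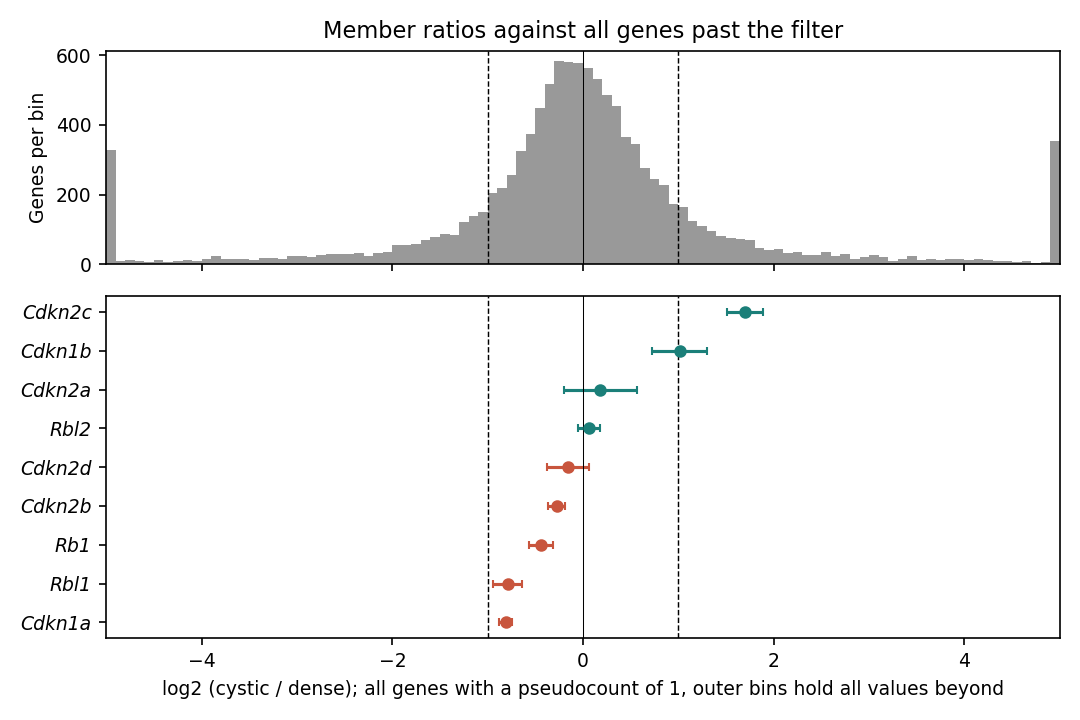
Top, number of genes per bin of 0.1 of the log2 ratio of cystic over dense for the 11279 genes past the minimum, with the outer bins holding all values beyond. Bottom, the log2 fold of each member with its 95% counting interval (teal higher in cystic, red higher in dense), with dashed lines at 2-fold, which Cdkn2c and Cdkn1b pass.

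Levels of different genes were compared per kb of exon in the GENCODE M21 annotation. On that scale the 6 inhibitors summed to 2764 normalized counts per kb in cystic and 3347 in dense organoids, and the 4 INK4 genes to 1929 and 1963. The INK4 genes held 69.8% of the inhibitor sum in cystic (68.7 to 70.9) and 58.7% in dense organoids (57.6 to 59.8). The dense value was 36.9% without a correction for length. Cdkn2b held 45.8% of the sum in both libraries. Cdkn2c held 12.8% in cystic (11.99 to 13.6) and 3.25% in dense organoids (2.89 to 3.61). Cdkn1a held 27.8% in cystic (26.8 to 28.9) and 40.4% in dense organoids (39.3 to 41.4), and Cdkn1b 2.38% and 0.973%. Cdkn2c thus took a larger share in cystic organoids and Cdkn1a a larger share in dense organoids, with intervals that did not overlap between the libraries.

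In order of level per kb, Cdkn2b came first (1266 in cystic and 1534 in dense organoids) and Cdkn1a second (769 and 1351). With the longest transcript as the length that order turned, with 1314 and 2307 for Cdkn1a. In cystic organoids Cdkn2c followed with 354, ahead of Cdkn2d with 203, Cdkn2a with 106 and Cdkn1b with 65.7. In dense organoids Cdkn2d followed with 227, ahead of Cdkn2c with 109, Cdkn2a with 93.8 and Cdkn1b with 32.5. In dense organoids the shares of Cdkn2c and Cdkn2a (2.80%, 2.30 to 3.30) overlapped in their intervals, and their order turned with the longest transcript (118 and 123 per kb). Cdkn1b was the lowest inhibitor in both.

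**Figure D3:**
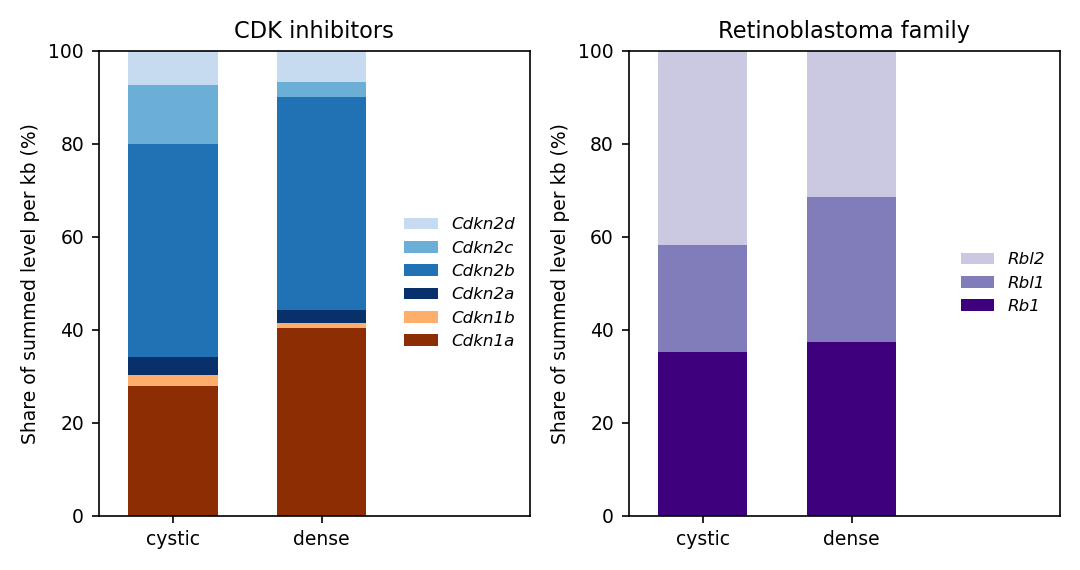
Share of each member in the summed level per kb (%), for the 6 CDK inhibitors (left) and the 3 retinoblastoma family genes (right), 1 bar per library. The Cdkn2c part is larger in cystic organoids (12.8% against 3.25%), the Cdkn1a part larger in dense organoids (27.8% against 40.4%).

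Within the retinoblastoma family, the gene of the pocket protein of dividing cells was the one furthest apart. Rbl1 (ENSMUSG00000027641, chromosome 2) encodes p107, which is itself an E2F target and is made mainly by cycling cells. It had 558 normalized counts in cystic (511 to 607) and 963 in dense organoids (904 to 1024), 1.73-fold higher in dense (1.55 to 1.92). Rb1 (ENSMUSG00000022105, chromosome 14), the retinoblastoma gene itself, had 857 in cystic (799 to 918) and 1161 in dense organoids (1097 to 1229), 1.36-fold higher in dense (1.24 to 1.48). Rbl2 (ENSMUSG00000031666, chromosome 8) encodes p130, the pocket protein of resting cells. It had 1278 in cystic (1208 to 1352) and 1224 in dense organoids (1158 to 1293), with overlapping intervals and a fold towards cystic of 1.04 (0.965 to 1.13).

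Per kb the 3 genes summed to 405 normalized counts in the cystic library and to 516 in the dense library. The share of p107 in that sum was 22.99% in cystic (21.3 to 24.7) and 31.1% in dense organoids (29.6 to 32.7). The share of p130 was 41.8% in cystic (39.9 to 43.7) and 31.4% in dense organoids (29.9 to 32.9), and that of Rb1 35.2% and 37.4%. In cystic organoids p130 was thus the largest part, in dense organoids Rb1, although with the longest transcript as length Rb1 and p130 were level there, at 249 per kb each. Exons of Rb1 overlap those of Lpar6 and Rcbtb2, and exons of Rbl2 those of Aktip and Gm45464, all on the opposite strand. Of the 36-base stretches of Rb1 transcripts, 12.8% also occurred in transcripts of another gene, and 18.2% of those of Rbl2. Rcbtb2 had 1823 against 381 and Aktip 2467 against 2103. Whether the authors counted by strand is not given in the sources used here, so part of the Rb1 and Rbl2 reads may belong to these neighbours. For Cdkn1a, whose exons overlap AC167363.2 on the opposite strand, 9.30% of the stretches were shared, and for Rbl1 0.235%.

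Around the members, 11 lists of genes of the same pathway were counted. In each, counts are of measured genes called at 2-fold, to be read against 15.7% and 15.6% of all genes and a median log2 ratio of -0.03. The kinases and cyclins that the inhibitors act on differed in part. Of 13 G1 cyclin and kinase genes, 1 was called towards cystic and 3 towards dense organoids (median -0.17). Ccnd1, the cyclin D1 gene, stood at 8621 against 3622, 2.38-fold towards cystic (2.29 to 2.47). Cdk4, the main target of the INK4 proteins, stood at 2851 against 6341, 2.22-fold towards dense (2.13 to 2.33). Ccne1, the cyclin E1 gene, and Cdc25a, a phosphatase gene that activates CDK2, stood at 330 against 764 (2.32-fold towards dense, 2.03 to 2.65) and at 183 against 509 (2.78-fold, 2.34 to 3.31). Ccnd2, with the highest normalized counts of the list, had 20853 against 15887.

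Set against their target kinases within each library, the INK4 genes stood higher in cystic organoids. The summed INK4 level per kb was 2.01 times that of Cdk4 plus Cdk6 in cystic (1.91 to 2.11) and 0.957 times in dense organoids (0.917 to 0.998). These ratios were 1.35 and 0.631 with the length of the longest transcript. For Cdkn2c alone the ratio to Cdk4 plus Cdk6 was 0.368 in cystic (0.342 to 0.396) and 0.0531 in dense organoids (0.0473 to 0.0595). The longest transcript gave 0.258 and 0.0369. The 2 parts of the INK4 ratio did not contribute alike, as the INK4 sums were close and Cdk4 plus Cdk6 had 961 per kb in cystic and 2052 in dense organoids. These are ratios of transcripts and say nothing of protein amounts.

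Genes that act on p27 and p21 protein were also counted, 13 in all. Skp2 encodes the F-box protein that marks p27 for destruction. It stood at 142 against 306, 2.15-fold towards dense (1.75 to 2.65), the direction opposite to that of Cdkn1b. The level of Cdkn1b per kb was 3.64 times that of Skp2 in cystic (2.97 to 4.46) and 0.838 times in dense organoids (0.692 to 1.02). With the length of the longest transcript, these ratios were 2.86 and 0.658. Dtl, which targets p21 for destruction in S phase, had 443 against 1013 (2.29-fold towards dense, 2.04 to 2.57). Skp1a, a shared subunit of many F-box ligases, had 19414 against 6750 (2.88-fold towards cystic, 2.80 to 2.96), and Ddb1, the adaptor used with Dtl, 10845 against 9242. The calls in this list were 1 towards cystic and 2 towards dense organoids (median -0.01).

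The E2F factors that the pocket proteins hold in check included members called in both directions. Of 10 E2F and DP genes, 2 were called towards cystic and 2 towards dense organoids (median -0.24). E2f2, an activator, stood at 152 against 32.5, 4.67-fold towards cystic (3.19 to 6.996). E2f5, a partner of p130, had 929 against 401 (2.32-fold, 2.06 to 2.61). The atypical repressor E2f8 stood at 163 against 627, 3.84-fold towards dense (3.22 to 4.61), and its relative E2f7 at 101 against 295 (2.91-fold, 2.31 to 3.70). E2f4, the main partner of p107 and p130, had 1165 against 1596, and Tfdp1, the dimer partner, 2343 against 2761. Of 8 genes of the DREAM and MuvB complex, through which p107 and p130 repress cell cycle genes, 1 was called, Lin54, the DNA-binding subunit, at 464 against 1128 (2.43-fold, 2.18 to 2.71), and the median was -0.31. Rbbp4 had 5205 against 5081, and Dyrk1a, the kinase that starts DREAM assembly, 1014 against 987. Of 12 corepressors and partners of the retinoblastoma proteins, 0 were called in either direction (median 0.02), with Rbbp7 at 5565 against 4228 and Smarca4 at 4732 against 3537.

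Of 16 replication and other cell cycle genes that E2F factors drive, 1 was called in each direction (median -0.25). Cdt1, a licensing factor gene, stood at 251 against 770.4, 3.07-fold towards dense (2.65 to 3.56). Rrm2, a ribonucleotide reductase subunit gene, stood at 2064 against 950.1, 2.17-fold towards cystic (2.01 to 2.35). Mcm6 had 2452 against 3201 and Rrm1 3282 against 3243. At any size of ratio, 7 of the 16 genes lay towards cystic and 9 towards dense organoids. Rbl1, itself an E2F target, lay on the same side as Cdt1 and opposite to Rrm2. Whether the share of cycling cells differed between the libraries was not tested.

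**Figure D4:**
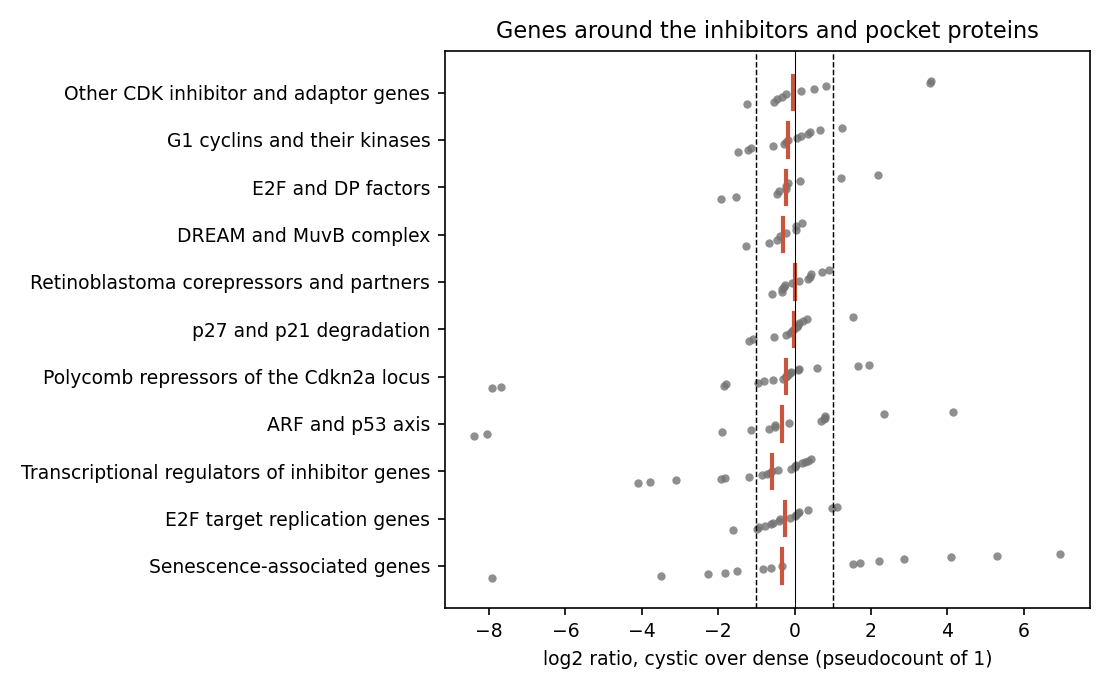
The log2 ratio of cystic over dense (pseudocount of 1) of each measured gene in the 11 lists, 1 point per gene, with red bars at the list medians and dashed lines at 2-fold. The medians lie between -0.58 and 0.02. Single genes reach far beyond 2-fold in several lists, among them the other CDK inhibitor, Polycomb, p53, regulator and senescence lists.

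Genes known to control the Cdkn2a locus included several called ones, while the difference of Cdkn2a itself was within counting error. Of 18 Polycomb and related genes, 2 were called towards cystic and 4 towards dense organoids (median -0.22). Cbx7, a Polycomb subunit that represses Cdkn2a, stood at 1021 against 266, 3.84-fold towards cystic (3.36 to 4.41). Its relative Cbx6 had 6228 against 1959 (3.18-fold, 3.02 to 3.35), whereas Cbx2 had 197 against 708 (3.60-fold towards dense, 3.06 to 4.25). Kdm2b, a histone demethylase gene that guides Polycomb to CpG islands, had 157 against 549 (3.50-fold towards dense, 2.92 to 4.21). Tbx3 and Tbx2, T-box repressors of ARF, had 239.9 and 205 in dense organoids, while the cystic library held no read of them. Set against a floor of 3 reads there, they were at least 76.4-fold and 65.2-fold higher in dense organoids. Phc2 had 4091 against 5052. The median was the same to 2 decimals with the genes at 0 put at the floor.

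Of 14 genes of the ARF and p53 axis, 2 were called towards cystic and 4 towards dense organoids (median -0.32, or -0.13 with a minimum mean of 200). Trp63, the basal epithelial relative of p53, had 60.7 against 16344 (269-fold, 208 to 355), and Trp73 had 334 in dense organoids with the cystic library at 0 reads (at least 106-fold). Sesn1, a p53 target, had 338 against 1258 (3.72-fold towards dense, 3.29 to 4.22). Npm1, which binds ARF in the nucleolus, had 3231 against 7137 (2.21-fold, 2.12 to 2.30). The p53-responsive genes Ccng1 and Gdf15 lay the other way, with Ccng1 at 28319 against 5548 (5.10-fold, 4.96 to 5.25) and Gdf15 at 508 against 27.7 (18.3-fold, 12.6 to 27.7). The list's other p53 targets, named after their values were seen, also lay towards cystic organoids without being called. Mdm2 had 4389 against 2718 (1.61-fold, 1.54 to 1.69), Zmat3 812 against 479 (1.70-fold, 1.51 to 1.90), Sesn2 2875 against 1647 (1.75-fold, 1.64 to 1.85) and Btg2 8212 against 4709 (1.74-fold, 1.68 to 1.81). Trp53, the p53 gene itself, also named after its values were seen, had 1508 against 2398 (1.59-fold towards dense, 1.49 to 1.70). Cdkn1a, at 1.76-fold towards dense organoids and not called either, thus lay opposite to these 6 targets and on the side of Sesn1 and Trp53.

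Among 19 measured transcriptional regulators of inhibitor genes, of 22 in the list, 0 were called towards cystic and 6 towards dense organoids (median -0.58). Mxd1, a MYC antagonist of differentiating epithelium, had 1186 against 20316 (17.1-fold, 16.1 to 18.2). Klf4, which activates Cdkn1a, had 205 against 2819 (13.7-fold, 11.9 to 15.97). Id3 had 36.6 against 321 (8.77-fold, 6.18 to 12.8). Myc, which represses Cdkn1a and Cdkn2b, had 1750.2 against 6711 (3.83-fold, 3.63 to 4.05). The pituitary tumour suppressor Men1, whose product menin activates Cdkn1b and Cdkn2c and which was chosen after its values were seen, had 1294 against 1260. Basal and squamous epithelial markers, given above, were higher in dense organoids as well, and their part in the counts of this list was not tested.

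Of 22 senescence-associated genes, 15 were measured, 7 called towards cystic and 5 towards dense organoids (median -0.34, or -0.62 with a minimum mean of 10 or 200). Their calls thus lay on both sides. The list was not sorted into genes that rise and genes that fall in senescence, so its counts and median give no direction of senescence. Cxcl5 had 12029 against 95.6 (126-fold, 103 to 155), Igfbp5 340.0 against 7.65 (44.5-fold, 22.3 to 104), Dpp4 937 against 53.5 (17.5-fold, 13.4 to 23.4) and Plaur 498 against 66.9 (7.44-fold, 5.78 to 9.71). Towards dense organoids lay Il1a, with 1.05 against 491 (469.6-fold, 83.9 to 18585), Igfbp7 with 485 against 5450.4 (11.2-fold, 10.2 to 12.4), Hmga2 with 239.6 against 1159 (4.84-fold, 4.20 to 5.59) and Hmga1 with 1662 against 5853 (3.52-fold, 3.33 to 3.72). Glb1 and Lmnb1 were named after their values were seen. Glb1 had 2464 against 754 (3.27-fold towards cystic, 3.01 to 3.55) and Lmnb1 889 against 1370 (1.54-fold towards dense, 1.41 to 1.68). Beside these genes stood Cdkn2a and Cdkn2b, the INK4 genes used as senescence markers. Cdkn2a differed by 1.13-fold towards cystic (0.869 to 1.48) and Cdkn2b by 1.21-fold towards dense organoids (1.14 to 1.29). Cdkn1a, also used as such a marker, was 1.76-fold higher in dense organoids (1.67 to 1.84).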

How the data were processed

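The authors deposited 1 table with a normalized read signal per gene and library, written as normalized counts. The submitters' processing notes name TopHat, DESeq 1.32.0 and the mm9 build, and for the role of each, the read counter and the annotation the entry is: not given in the sources used here. Within 0.001 read, 100% of the values in a column divide evenly by its lowest nonzero value, so reads were recovered as value divided by that unit (1.05 normalized counts in cystic, 0.956 in dense). With 1 library per group a count test on them has no residual spread and was not run. The 2 ERCC rows, with 0 and 2 reads, were left out.

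Poisson intervals on levels and Clopper-Pearson intervals on folds are exact, at 95%; intervals on shares and on ratios per kb come from Poisson variances. All cover counting error only. A count of 0 was given a floor of 3 reads per library. Lengths, overlaps and shared stretches came from GENCODE M21 (GRCm38), matched by Ensembl identifier, and promoters from RefSeq by symbol. Named genes are all members and, per list, up to 4 called genes in each direction and the 2 of highest mean. Genes marked as named or chosen after their values were seen are additions to this rule. Members and lists were chosen with earlier results of these data known. Alternatives were other pseudocounts, minima, fold thresholds, scalings (edgeR 4.0.16 for 2 of them) and lengths. The ratio rule and the fold interval were tested on simulated Poisson counts, which hold no spread from PCR or between cultures.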

Additional observations from a re-analysis of the deposited data

How the results depend on the processing

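The number of members called higher in cystic organoids, 2, became 1 with a pseudocount of 10 or 50 and 1 when the whole counting interval had to lie beyond 2-fold (a rule chosen after the data were seen, which 13.1% of all genes passed towards cystic organoids), in each case without Cdkn1b. It became 0 at 4-fold. The number called higher in dense organoids, 0, became 2 at 1.5-fold. Both counts kept their value with a pseudocount of 0.5, a minimum mean of 10 or 200, no minimum, and scaling to total reads, to the upper quartile or by the trimmed mean of M-values (TMM). These scalings moved the median ratio of all genes by 0.03 or less on the log2 scale, and all 54 alternative log2 ratios of the members stayed within their counting intervals. With the longest transcript as length, the INK4 share was 59.3% in cystic and 46.4% in dense organoids, and without a length correction 50.98% and 36.9%. The p107 share was 20.5% and 28.4% with the longest transcript and 20.7% and 28.7% without a correction. Each share kept its order between the libraries. Of 77 alternative list medians, 4 moved further than the log2 counting interval of a typical gene of that list reaches to 1 side of its centre. These were the senescence list (-0.34 to -0.62 with a minimum mean of 10 or 200), the ARF and p53 list (-0.32 to -0.13 with 200) and the other CDK inhibitors (-0.04 to -0.47 with 200). The median of the p27 and p21 list, -0.01, turned sign under the 3 scalings, to at most 0.02. No paired analysis was possible because each group has 1 library; for the same reason no library could be left out.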
